A study of Mus musculus with 2 samples.

Results

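The genes examined were 9 regulators of the mitochondrial pathway of apoptosis, taken from the 24411 genes of the count files by their symbols. They were the anti-apoptotic *Bcl2*, *Bcl2l1* and *Mcl1*, the pro-apoptotic *Bax*, *Bak1* and *Bcl2l11*, the caspase activators *Apaf1* and *Casp9*, and *Trp53*, which encodes p53. All 9 were read in both libraries and passed the minimum of 1 CPM (counts per 1000000 gene-assigned reads) as the mean of the libraries, which 12738 genes passed in total. RNA came from mouse brain at embryonic day 16.5, from embryos for which no genotype or treatment is named and whose strain, sex and number the sources used here do not give. Pieces of stained fresh-frozen section were cut out by laser capture microdissection (LCM) and sequenced in bulk, 1 library from the subventricular zone (SVZ), a germinal layer of dividing progenitors, and 1 from the cortex, where the neurons made there settle. The pair was made to benchmark a spatial barcoding method on the same areas, and SVZ and cortex below stand for these 2 libraries. The SVZ library had 51435667 gene-assigned reads and the cortex library 22050693, and 1 read stood for 0.0194 and 0.0453 CPM. With 1 library per area there is no replicate check and no test between the areas. The intervals below are exact 95% intervals that cover counting error only and treat each read as independent. Reads without molecular identifiers include PCR copies, so the intervals can be too narrow even for counting error. They compare these libraries and not the areas in general.

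In the mitochondrial pathway, BAX and BAK1 open pores in the outer mitochondrial membrane unless BCL2, BCL-XL (from *Bcl2l1*) or MCL1 hold them back, and BH3-only proteins such as BIM (from *Bcl2l11*) neutralise these guards or activate the pore formers. Released cytochrome c assembles APAF1 into the apoptosome, which activates caspase-9 and through it the executioner caspases. p53 is a transcription factor, stabilised by damage, that induces *Bax* and the BH3-only genes *Bbc3* and *Pmaip1*. In the embryonic forebrain, loss of *Apaf1* or *Casp9* leaves surplus cells, loss of *Mcl1* kills neural progenitors and loss of *Bcl2l1* kills young postmitotic neurons.

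The labelled areas were checked against marker lists. Each of 8 progenitor and proliferation markers had a higher CPM in SVZ, among them *Pax6* (180 and 0.680 CPM in SVZ and cortex) and *Mki67* (270 and 5.62 CPM). Each of 9 neuronal markers was higher in cortex, 7 of them at least 2-fold, such as *Tbr1* (47.3 and 219 CPM) and *Map2* (335 and 832 CPM). Other cell types also differed. All 10 microglial markers were at least 2-fold higher in SVZ, with 1 at 0 in cortex, and they summed to 79.0 CPM in SVZ and 9.39 CPM in cortex. The choroid plexus markers summed to 245 and 0.907 CPM, with 1 of 5 at 0 in SVZ and 3 of 5 in cortex. A single marker gave 240 and 0.726 CPM of these sums. The endothelial and pericyte markers summed to 162 and 125 CPM, with 9 of 10 within 2-fold. Meningeal markers summed to 4.59 and 9.39 CPM, with 1 of 6 at 0 in SVZ and 2 of the 4 that passed the minimum at least 2-fold higher in cortex. Erythroid markers summed to 20.4 and 10.9 CPM, with 4 of 7 at 0 in both libraries.

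The members differed in both direction and size. The BH3-only gene *Bcl2l11* was about an order of magnitude higher in SVZ, the anti-apoptotic *Bcl2* and *Bcl2l1* were more than 2-fold higher in cortex, and the other 6 members lay within 2-fold. Thus 1 of 9 members was at least 2-fold higher in SVZ and 2 of 9 in cortex, where 20.0% and 15.6% of the 12738 genes were. At a 4-fold limit these were 1 and 0 members, against 10.2% and 7.01% of all genes. At a 1.5-fold limit 3 members were higher in SVZ and 3 in cortex, against 30.5% and 24.3% of all genes. The interval excluded equal CPM for 8 of 9 members, a share that says little here because it did so for 86.8% of all genes. The median of log2(SVZ CPM / cortex CPM) was 0.19 over the 9 members and 0.11 over all genes tested. Each comparison below rests on the whole tissue piece, in which fewer cells of a type and less RNA per cell cannot be told apart.

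**Figure D1:**
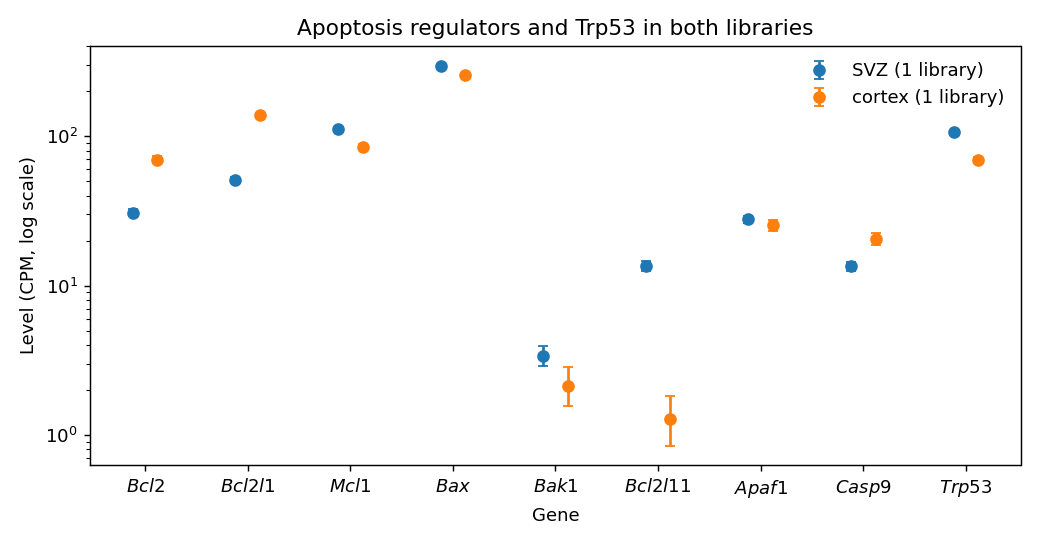
Levels of the 9 members in CPM (log scale) in SVZ and the cortex library, with points for the value and bars for the exact Poisson 95% interval of the read count. *Bcl2l11* shows the widest gap, 13.6 against 1.27 CPM, and *Bax* is the highest of the members in both libraries.

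*Bcl2l11* encodes BIM, which binds the anti-apoptotic proteins and can activate BAX. It had 698 reads or 13.6 CPM in SVZ and 28 reads or 1.27 CPM in cortex. This was a 10.7-fold difference (interval 7.33 to 16.2) and a log2 ratio of 3.42, at percentile 94.6 of the ratios of all genes tested. The cortex value rests on few reads, and a pseudocount of 1 CPM drew the log2 ratio to 2.68. The microglial and progenitor markers given above were higher in the same library, and their part in this difference was not tested. The gene lies on GRCm38 chromosome 2 from 128126038 to 128162547, on the plus strand, and is protein coding.

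To show the promoter sequence of the members at least 2-fold apart, the 250 bases before their annotated starts are printed from RefSeq on GRCm38.p6, in the direction of the gene. All 9 members were matched in RefSeq by symbol. Of the 2 starts of *Bcl2l11* both are shown, of the 3 starts of *Bcl2l1* the outermost, the others lying within its own exons. Capitals mark the FoxO motif GTAAACA, the GC box GGGCGG or the E2F motif (TTTCCCGC, TTTCGCGC, TTTGCCGC or TTTGGCGC), searched on both strands. The first 2 sequences are for *Bcl2l11* (chr2:128125788-128126037 and chr2:128127325-128127574, plus strand), the next for *Bcl2* (chr1:106714291-106714540, minus strand) and the last for *Bcl2l1* (chr2:152831729-152831978, minus strand).
Bcl2l11 start 1: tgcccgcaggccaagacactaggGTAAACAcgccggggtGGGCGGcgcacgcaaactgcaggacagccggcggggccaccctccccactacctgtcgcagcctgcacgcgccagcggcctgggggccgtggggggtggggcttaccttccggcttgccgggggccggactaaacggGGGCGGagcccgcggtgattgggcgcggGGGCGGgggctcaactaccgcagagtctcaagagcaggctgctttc
Bcl2l11 start 2: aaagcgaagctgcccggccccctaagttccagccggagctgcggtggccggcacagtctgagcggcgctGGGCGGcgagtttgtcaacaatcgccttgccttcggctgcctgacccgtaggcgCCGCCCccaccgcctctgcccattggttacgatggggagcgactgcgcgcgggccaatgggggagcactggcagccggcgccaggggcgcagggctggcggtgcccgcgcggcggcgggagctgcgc
Bcl2: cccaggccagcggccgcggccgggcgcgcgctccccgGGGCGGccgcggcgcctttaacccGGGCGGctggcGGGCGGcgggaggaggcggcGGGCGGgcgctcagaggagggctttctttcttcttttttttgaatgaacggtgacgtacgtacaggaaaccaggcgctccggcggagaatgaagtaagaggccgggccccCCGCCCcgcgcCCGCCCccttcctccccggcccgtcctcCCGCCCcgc
Bcl2l1 start 3: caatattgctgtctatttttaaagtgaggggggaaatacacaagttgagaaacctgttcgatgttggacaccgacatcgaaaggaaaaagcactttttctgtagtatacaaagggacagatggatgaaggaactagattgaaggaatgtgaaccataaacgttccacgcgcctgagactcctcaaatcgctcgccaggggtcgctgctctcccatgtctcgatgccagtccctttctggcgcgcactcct

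The *Bcl2l11* window before the first start held 1 FoxO motif and 3 GC boxes, and that before the second start 2 GC boxes. The *Bcl2* window held 7 GC boxes and the *Bcl2l1* window none of the 3 motifs. Over the 32851 RefSeq windows of this length, 3.17% held the FoxO motif, 32.7% a GC box and 1.86% an E2F motif. GC content was 72.0% and 73.2% before the starts of *Bcl2l11*, 74.8% before *Bcl2* and 47.6% before *Bcl2l1*. The window of *Bcl2* and the outermost window of *Bcl2l1* thus differed in GC content and in the motifs found. Which start was used in these libraries was not tested, nor was any part of these windows in the ratios. Among the other members, GC boxes numbered 4 before *Casp9*, 2 before *Bax* and 2 before *Apaf1*. The windows before *Bak1* and *Trp53* held none of the 3 motifs, but all 250 bases of the *Bak1* window lie within its own exons. The only E2F motif lay before an inner start of *Bcl2l1*. A match of letters is a description and not a binding site, and no binding was measured in these libraries.

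The anti-apoptotic members did not all lie on the same side. *Bcl2l1*, the source of BCL-XL, had 2637 reads or 51.3 CPM in SVZ and 3050 reads or 138 CPM in cortex. It was 2.70-fold higher in cortex (interval 2.56 to 2.84), a log2 ratio of -1.43 at percentile 10.8 of all genes. *Bcl2*, the founding member of the family, had 1586 reads or 30.8 CPM in SVZ and 1540 reads or 69.8 CPM in cortex. Its difference was 2.26-fold towards cortex (2.11 to 2.43), with a log2 ratio of -1.18 at percentile 13.3. In GENCODE M21 on GRCm38, *Bcl2l1* lies on chromosome 2 from 152780668 to 152831728 and *Bcl2* on chromosome 1 from 106538178 to 106714274, both on the minus strand and protein coding. *Bcl2* holds the microRNA gene *Mir3473f* outside its exons, which had 0 reads in both libraries. Both members lay on the side of the neuronal markers, whose part in these values was not tested.

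*Mcl1*, whose protein is short-lived and must be made continually, lay on the other side. Its level was 5772 reads or 112 CPM in SVZ and 1876 reads or 85.1 CPM in cortex. It was 1.32-fold higher in SVZ (1.25 to 1.39), a log2 ratio of 0.40 at percentile 62.6, within the middle 50% of all genes. The gene lies on chromosome 3 from 95658788 to 95663176, on the plus strand. Its 250 bases before the start held 1 GC box and no FoxO or E2F motif. These counts do not separate the long anti-apoptotic form of *Bcl2l1* or *Mcl1* from the short pro-apoptotic form that each gene can also give by splicing.

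The pore formers stayed within 2-fold. *Bax* lies on chromosome 7 from 45461697 to 45466898 and *Bak1* on chromosome 17 from 27019810 to 27029009, both on the minus strand. *Bax* had 15206 reads or 296 CPM in SVZ and 5714 reads or 259 CPM in cortex, 1.14-fold higher in the former (1.11 to 1.18), with a log2 ratio of 0.19 at percentile 53.5. That is close to the median of all genes, 0.11. *Bak1* had 175 reads or 3.40 CPM in SVZ and 47 reads or 2.13 CPM in cortex, 1.60-fold higher in SVZ with a wide interval (1.15 to 2.25). *Bak1*, the functional partner of *Bax*, was thus near the minimum level used here in both areas. Its exons overlap those of *Ggnbp1* on the opposite strand by 614 bases in GENCODE M21, which is not the annotation the reads were counted on. *Bak1* gained 0 reads in either library when the stranded columns were added up, so no *Bak1* reads were recovered there by strand. *Ggnbp1* had 164 reads in SVZ and 8 in cortex. The libraries split evenly between strands (49.6% and 49.7% of stranded counts on the first strand).

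The caspase activators, which act together in the apoptosome, had unlike ratios. *Apaf1* lies on chromosome 10 from 90989311 to 91082770 (minus strand) and *Casp9* on chromosome 4 from 141793612 to 141815976 (plus strand). *Apaf1* had 1434 reads or 27.9 CPM in SVZ and 561 reads or 25.4 CPM in cortex. With a log2 ratio of 0.13 (interval -0.01 to 0.28), no difference was detectable at this depth. Its ratio was at percentile 51.0 of all genes, and that of *Casp9* at 23.9. *Casp9*, the initiator caspase that APAF1 activates, had 692 reads or 13.5 CPM in SVZ and 451 reads or 20.5 CPM in cortex, and was 1.52-fold higher in the latter (1.35 to 1.71). *Casp9* overlaps exons of *Cela2a* and *Ctrc* on the opposite strand by 94 bases each, genes with at most 2 reads here, and it gained 43 and 19 reads when the stranded columns were added up, more than any other member.

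*Trp53* lies on chromosome 11 from 69580359 to 69591873, on the plus strand. It had 5464 reads or 106 CPM in SVZ and 1533 reads or 69.5 CPM in cortex. It was 1.53-fold higher in SVZ (1.44 to 1.62), a log2 ratio of 0.61 at percentile 70.5 of all genes. *Mdm4*, which restrains p53, was close to it with 155 and 97.5 CPM and a log2 ratio of 0.67, while *Mdm2*, the ubiquitin ligase that degrades p53 and is itself a p53 target, had 80.8 and 72.2 CPM and a log2 ratio of 0.16. None of the 6 genes used of the p53 family and its regulators was 2-fold apart, and their median log2 ratio was 0.52.

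**Figure D2:**
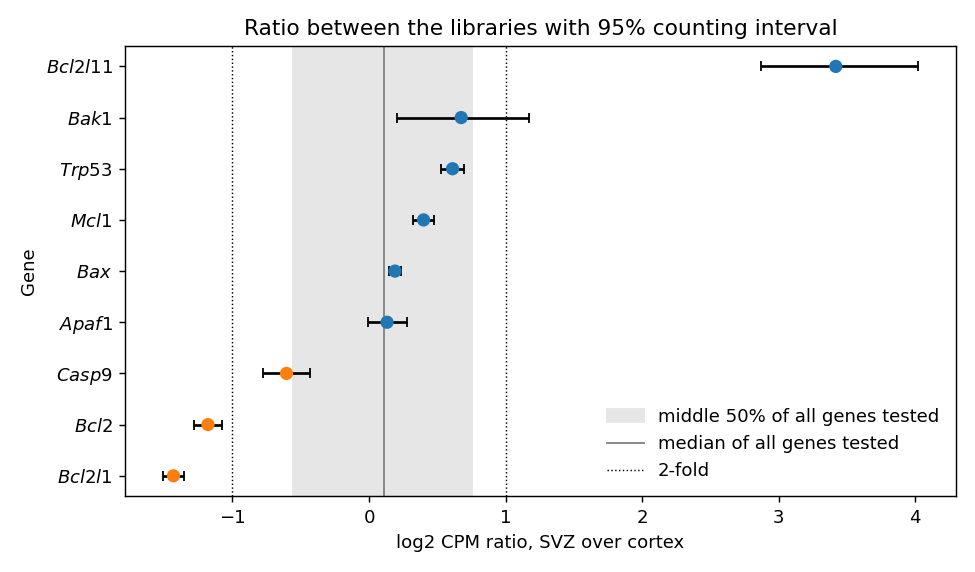
Ratio of CPM, SVZ over cortex, on the log2 scale for each member, with the exact 95% counting interval, blue where higher in SVZ and orange where higher in cortex. The grey band spans the middle 50% of all 12738 genes tested (-0.56 to 0.76), the line their median of 0.11 and the dotted lines 2-fold, and *Bcl2l11*, *Bcl2* and *Bcl2l1* lie past them.

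Ratios between members within a library were then compared, because they need no library total and so do not depend on the scaling. Of 13 pairs, 12 had an interval that excluded an equal ratio in both libraries, which counts of this size give readily (the interval excluded equal CPM for 86.8% of single genes), so the sizes are given and nothing is read from the number of pairs. The ratio of *Bax* to *Bcl2l1* reads was 5.77 in SVZ and 1.87 in cortex, a 3.08-fold difference (interval 2.90 to 3.27). *Bax* to *Bcl2* stood at 9.59 and 3.71, which is 2.58-fold (2.39 to 2.79). Against *Mcl1* the direction was opposite, with 2.63 *Bax* reads per *Mcl1* read in SVZ and 3.05 in cortex, a quotient of 0.865 (0.814 to 0.919).

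*Bcl2l11* was higher in SVZ relative to each of the 3 guards. Its reads were 0.265 per *Bcl2l1* read in SVZ and 0.00918 in cortex, a 28.8-fold difference (19.7 to 43.9). Relative to *Bcl2* the difference was 24.2-fold (16.5 to 36.9) and relative to *Mcl1* it was 8.10-fold (5.53 to 12.3). *Bak1* was 3.62-fold (2.58 to 5.14) and 4.31-fold (3.09 to 6.10) higher in SVZ relative to *Bcl2* and *Bcl2l1*, whereas against *Mcl1* the quotient of 1.21 had an interval of 0.868 to 1.71. The 2 ratios of a pro-apoptotic to an anti-apoptotic member that were not higher in SVZ with an interval clear of 1 thus both had *Mcl1* as the guard. The ratios share genes and are not independent. Each quotient follows from the members' ratios given above, in which *Mcl1* was the only one of these guards higher in SVZ. The outcome for *Mcl1* is therefore no further finding.

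The remaining pairs described balance within a role. *Mcl1* to *Bcl2l1* was 2.19 in SVZ and 0.615 in cortex, a 3.56-fold difference (3.30 to 3.83), so that *Mcl1* had more reads than *Bcl2l1* in the former and fewer in the latter. *Bcl2* to *Bcl2l1* differed 1.19-fold (1.09 to 1.30). *Apaf1* to *Casp9* was 2.07 and 1.24, or 1.67-fold higher in SVZ (1.42 to 1.95). *Bax* to *Bak1* had a quotient of 0.715 with an interval that ended just under 1 (0.506 to 0.993).

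**Figure D3:**
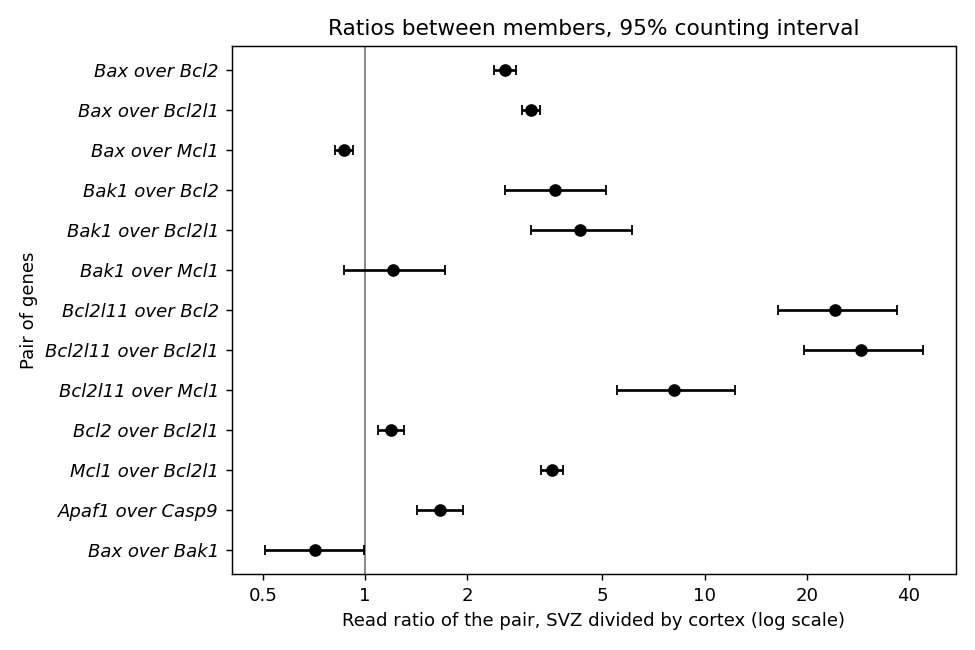
Read ratio of each of 13 pairs of members in SVZ divided by that in cortex (log scale), with the exact conditional 95% interval; values above 1 are higher in SVZ. The ratios of *Bcl2l11* to the anti-apoptotic members reach from 8.10 to 28.8, while *Bax* over *Mcl1* lies at 0.865.

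Levels of different genes were compared per kilobase of exon, since longer genes can collect more reads. The lengths came from GENCODE M21, which is not the annotation the reads were counted on. Whether reads rose with length in these libraries was not tested. *Bax* led in both libraries with 188 CPM per kb in SVZ and 164 CPM per kb in cortex. In the SVZ library *Mcl1* (32.8 CPM per kb), *Trp53* (26.3) and *Bcl2l1* (11.2) followed, then *Bcl2* (3.37), *Apaf1* (3.09), *Casp9* (2.59), *Bcl2l11* (1.69) and *Bak1* (1.41). Neighbours in this order had separate counting intervals except *Bcl2* with *Apaf1* and *Bcl2l11* with *Bak1*.

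In the cortex library *Bcl2l1* (30.2 CPM per kb) stood above *Mcl1* (24.9) and *Trp53* (17.2), followed by *Bcl2* (7.63), *Casp9* (3.94), *Apaf1* (2.82), *Bak1* (0.886) and *Bcl2l11* (0.158), all with separate intervals. Rank 2 was thus *Mcl1* in SVZ and *Bcl2l1* in cortex. Of the summed level of the 3 anti-apoptotic members per kb, *Mcl1* made up 69.3% in SVZ and 39.7% in cortex, *Bcl2l1* 23.6% and 48.1%, and *Bcl2* 7.11% and 12.2%. The sum itself was 47.4 CPM per kb in SVZ and 62.7 in cortex. Relative to this sum, *Bax* stood at 3.96 in SVZ and 2.62 in cortex, and *Bcl2l11* at 0.0357 and 0.00252. The size of these quotients depends on the division by length, which was 1576 bases for *Bax* and 9157 for *Bcl2*. With the length of the longest transcript in place of all exons, *Mcl1* made up 57.5% and 28.1% and *Bcl2l1* 35.0% and 60.9%. The order of the 9 members in each library was kept. In SVZ, however, *Mcl1* and *Trp53* then stood at 32.8 and 32.4 CPM per kb. The *Trp53* value lay within the *Mcl1* interval (32.0 to 33.7), so these members were no longer clearly apart.

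**Figure D4:**
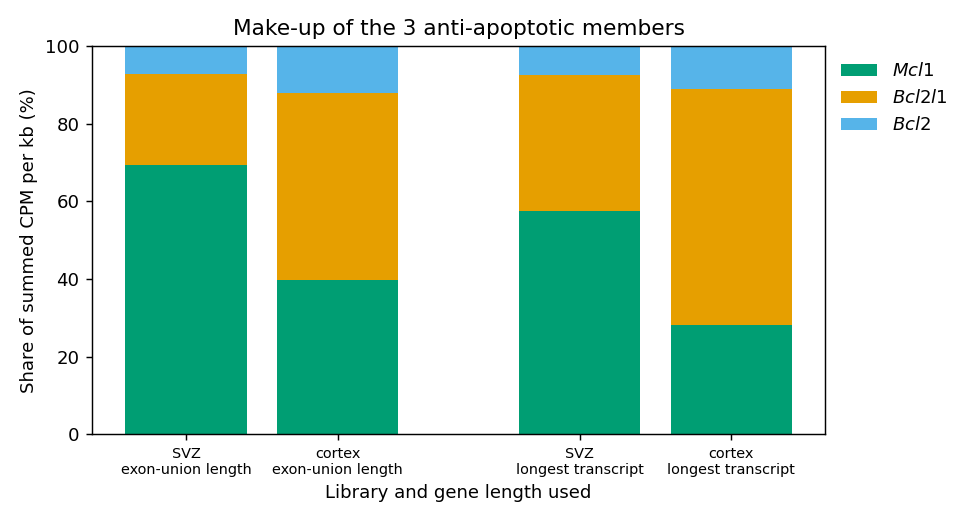
Share of *Mcl1*, *Bcl2l1* and *Bcl2* in their summed CPM per kb, for both libraries and for either gene length. *Mcl1* holds the largest share in SVZ (69.3% or 57.5%) and *Bcl2l1* in cortex (48.1% or 60.9%).

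The members were then set among the other genes of the pathways, in 8 lists. Of 65 genes, 54 had a mean of at least 1 CPM. Of these 22.2% were at least 2-fold higher in SVZ and 20.4% in cortex, near the 20.0% and 15.6% of all genes, and their median log2 ratio was 0.26. The same shares of all genes stand beside the counts of each list below. Each list holds few genes, so nothing is read from those counts.

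The BH3-only genes are the triggers of the pathway. Of 7 used of 8, 2 were at least 2-fold higher in SVZ and 4 in cortex, with a median log2 ratio of -1.41. A mean of at least 10 CPM left out *Bcl2l11* and others and kept only *Bid* and 1 gene within 2-fold. The counts were then 0 and 1, and the median of -0.56 was the midpoint of the genes kept. With no filter the median was -2.11. Beside *Bcl2l11*, *Bmf*, whose protein is tied to the cytoskeleton, was higher in SVZ (4.14 and 1.36 CPM, log2 ratio 1.61). The p53 targets *Pmaip1* (NOXA) and *Bbc3* (PUMA) were on the other side. *Pmaip1* had 26 reads or 0.505 CPM in SVZ and 182 reads or 8.25 CPM in cortex, a log2 ratio of -4.03 (interval -4.68 to -3.43). *Bbc3* had 44 reads or 0.855 CPM and 245 reads or 11.1 CPM, a log2 ratio of -3.70 (-4.20 to -3.23). *Hrk*, a BH3-only gene of neurons, had a log2 ratio of -2.85 on 21 and 65 reads, and *Bid*, which caspase-8 cleaves, one of -1.41 (19.4 and 51.5 CPM).

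Among the 4 anti-apoptotic genes used of 8, *Bcl2* and *Bcl2l1* were the genes past 2-fold. The median was -0.73. With no filter it was -0.045, and 1 gene was then at least 2-fold higher in SVZ. The genes this added had 16 and 8 reads in SVZ and 0 in cortex. Their ratios are bounds set by the 3 reads put in place of 0. Of the 3 effectors, *Bok*, a further relative of *Bax*, was 2.80-fold higher in cortex (24.4 and 68.4 CPM), against ratios of 1.14 and 1.60 towards SVZ for *Bax* and *Bak1*. The list median was 0.19, the value of *Bax*.

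Of the 7 genes for the apoptosome and caspases, 1 was at least 2-fold higher on each side and the median was 0.13. *Casp6*, an executioner caspase, had 73.2 CPM in SVZ and 29.3 in cortex (log2 ratio 1.32). *Casp2*, the caspase of the PIDDosome, had 100.1 and 66.2 CPM and a log2 ratio of 0.60.

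Among 6 genes used of the inhibitor of apoptosis (IAP) proteins and their antagonists, 1 passed 2-fold. This was *Birc5* (survivin), with 9162 reads or 178 CPM in SVZ and 48 reads or 2.18 CPM in cortex, a log2 ratio of 6.35 (5.95 to 6.80). Survivin is also a mitotic protein of the chromosomal passenger complex. The proliferation marker *Mki67* had a log2 ratio of 5.58, and the part of proliferation in the *Birc5* value was not tested. The median of the list was 0.33.

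The death receptor genes, which start apoptosis from the cell surface, had a list median of 1.40 over 7 genes used of 8. With a mean of at least 10 CPM only the adaptors *Fadd* and *Tradd* were left. Of these, 1 was at least 2-fold higher in SVZ and 1 in cortex, and 0.36 was their midpoint. The adaptor *Fadd* (27.5 and 4.94 CPM, log2 ratio 2.47), the initiator *Casp8* (10.7 and 1.22 CPM, 3.13), its inhibitor *Cflar* (1.40) and the kinase *Ripk1* (1.44) were at least 2-fold higher in SVZ. The adaptor *Tradd* (8.38 and 28.2 CPM, -1.75) and the receptor *Fas* (1.28 and 4.04 CPM, -1.65) were at least 2-fold higher in cortex. Microglial markers, with log2 ratios whose median was 3.44, were higher in SVZ too, and their part in these values was not tested.

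Of 22 p53 target genes 19 were used, with a median of 0.19. At least 2-fold higher were 4 in SVZ and 4 in cortex, beside 20.0% and 15.6% of all genes, and 11 lay within 2-fold. *Btg2*, an antiproliferative gene, had 173 and 23.3 CPM (log2 ratio 2.89), the sestrin *Sesn1* 158 and 50.7 CPM (1.64), the PIDDosome scaffold *Pidd1* 3.09 and 1.27 CPM (1.28) and the receptor *Eda2r* 2.68 and 1.13 CPM (1.24). On the cortex side, *Plk2*, a kinase induced by activity in neurons, had 84.9 and 1593 CPM (-4.23), followed by *Pmaip1*, *Bbc3* and *Fas*. *Pidd1* and *Eda2r* rest on 28 and 25 cortex reads, and with a pseudocount of 1 CPM both were less than 2-fold apart, which left 2 targets in SVZ. Of the targets named whatever their ratio, *Cdkn1a*, the inhibitor of cyclin-dependent kinases, had 571 reads or 11.1 CPM and 177 reads or 8.03 CPM, a log2 ratio of 0.47 (0.22 to 0.72), and *Ccng1* had 46.0 and 65.8 CPM (-0.52).

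**Figure D5:**
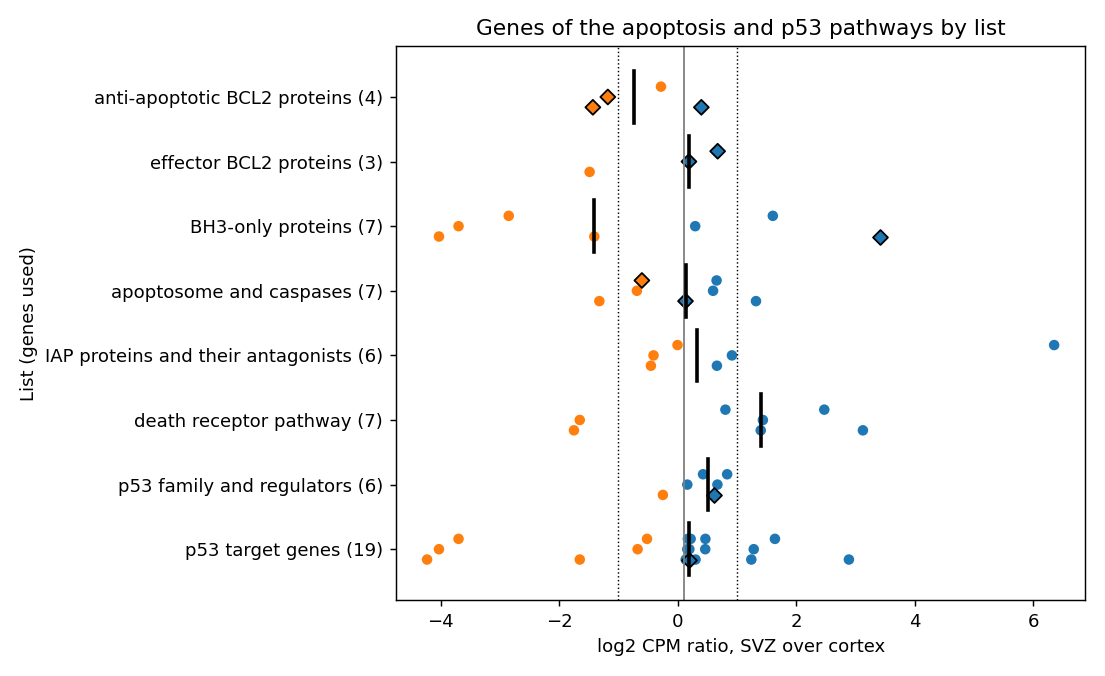
log2 CPM ratios, SVZ over cortex, of the genes of 8 lists with a mean of at least 1 CPM (number used in brackets), diamonds for the 9 members and circles for other genes, blue above 0 and orange below 0. The black bar is the list median, the grey line the median of all genes (0.11) and the dotted lines 2-fold, and the BH3-only genes spread from -4.03 to 3.42.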

How the data were processed

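Per the study's methods, adapters were removed with cutadapt 4.1, read 1 was mapped to mm10 with STAR 2.7.9a, and STAR counted reads per gene. The authors deposited raw counts of reads for each gene. Of the 3 count columns of a library (unstranded and both strands) the unstranded one was used. Reads that map to several places or overlap several genes are left out of these counts. The sources used here name no molecular identifiers and no removal of duplicates. The deposited table of the comparison also holds CPM, fold changes and their log10, computed by the authors, and was not used.

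CPM was computed here on the sum of gene rows. Areas were compared by log2(SVZ CPM / cortex CPM), and no pseudocount was added. Where a gene had 0 reads, 3 reads stood in its place (0.0583 CPM for SVZ, 0.136 CPM for cortex). Each ratio has a 95% Clopper-Pearson interval based on the proportion of SVZ reads among the reads of that gene, each level a Poisson interval, and each ratio of a pair a conditional interval of the 2 by 2 table. No p-value was computed. Genes were named by a rule: the members, 7 further pathway genes, up to 4 genes per list and direction at least 2-fold apart, ranked by the interval end nearer to 0, genes that overlap a member with their counts, and 4 markers. No gene with a like pattern was named, since 2 libraries give 1 ratio per gene. Some genes that the rule names are not reported here. The members and lists were chosen with earlier results of these data known. Positions and lengths came from GENCODE M21 (GRCm38), matched by symbol.

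Alternatives were the sum of the stranded columns, library totals that left out the 10 genes with most reads, size factors of DESeq2 1.42.0, edgeR 4.0.16 scaling by TMM or the upper quartile, a pseudocount of 1 CPM, other folds and minimums, and the longest transcript as the gene's length. The ratios and their intervals were tested on simulated Poisson counts, which hold no PCR copies and no variation between libraries. That test therefore cannot show how well the intervals hold for these data. Computation used R 4.3.3 and Python 3.11.15 with pandas 2.3.3, scipy 1.17.1, numpy 2.4.6 and matplotlib 3.10.9.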

Additional observations from a re-analysis of the deposited data

How the results depend on the processing

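No paired analysis was possible because there is a single library of each area, and no replicate could be left out. No member's ratio changed its side under the alternatives run. Other scalings lowered all log2 ratios by a constant of at most 0.099, the shift of the median of all genes (-0.099 under upper-quartile scaling). Under TMM, DESeq2 size factors and upper-quartile scaling in turn, *Bcl2l1* was at -1.52, -1.53 and -1.53, *Mcl1* at 0.31, 0.31 and 0.30, *Bax* at 0.10, 0.10 and 0.091, and *Trp53* at 0.52, 0.52 and 0.51. All these values lay outside the counting intervals of these members. For them the choice of scaling thus moved the ratio further than the counting error given. A pseudocount of 1 CPM, which draws in ratios of low counts, put *Bcl2l11* at 2.68, below its interval (2.87 to 4.02). At a fold of at least 1.5, 3 members were higher in SVZ and 3 in cortex, and at a fold of at least 4 there were 0 in cortex. A mean of at least 10 CPM, which tests fewer genes, left 1341 genes at least 2-fold higher in SVZ and 1113 in cortex, in place of 2547 and 1992, and 5 and 7 pathway genes in place of 12 and 11. It also turned the median of the effector list to -0.65 by leaving out *Bak1*. Of 192 list values under the alternatives, 173 stayed within 0.1 for a median (log2) or 1.5 times for a count.

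With the longest transcript as length, levels in CPM per kb were 269 for *Bax*, 32.4 for *Trp53*, 20.0 for *Bcl2l1*, 4.29 for *Bcl2*, 4.24 for *Apaf1*, 3.45 for *Casp9* and 2.69 for *Bcl2l11* in SVZ, and 236, 21.2, 53.9, 9.71, 3.87, 5.25 and 0.252 in the same order of genes in cortex. The shares of the anti-apoptotic members at this length were computed after the data were seen. Depth limited *Bcl2l11* and *Bak1* most, with 28 and 47 cortex reads.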
